A study of Drosophila melanogaster x Drosophila simulans and Drosophila melanogaster and Drosophila simulans with 186 samples.

Results

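Dorsal ectoderm and amnioserosa genes were followed along the anterior-posterior axis of single *Drosophila* embryos. The 9 genes are *zen*, *Ance*, *tup*, *ush*, *pnr*, *Doc1*, *Doc2*, *Doc3* and *C15*, which were found by their symbols among the 13577 genes with a deposited expression level, so they are 9 of 13577. Of the 9 genes, 8 also have a row in the table of allele-specific expression (ASE), which holds 7432 genes, and *C15* has none. The study asked where the alleles of *D. melanogaster* (mel, strain DGRP-340) and *D. simulans* (sim, strain w501) are used differently in hybrid embryos, since both alleles share the same nuclei there. The embryos were at the cellular blastoderm (cycle 14C, the middle of stage 5), were cut into slices across the anterior-posterior axis, and a separate RNA-seq library was made from each slice. There were 3 hybrid embryos from *D. melanogaster* mothers and *D. simulans* fathers (melXsim, with 27, 26 and 27 slices), 2 hybrid embryos from the reciprocal cross (simXmel, with 25 and 27 slices), and 1 embryo of each parental strain (melXmel and simXsim, with 27 slices each). The embryo was the replicate, because slices of an embryo are pieces of 1 animal. Each parental strain is represented by 1 embryo. The study gives the melXmel embryo as female and the simXsim embryo as male, so species and sex cannot be told apart between them. By its account, the hybrids of each cross included at least 1 embryo of each sex. Sex therefore varies within both hybrid groups, and it was no term in the tests below. The study also names subtle differences in size and stage as a difficulty in comparing absolute patterns. Species and age within stage 5 cannot be told apart between the parental embryos either.

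In the blastoderm, cells on the dorsal side receive the BMP ligands Dpp and Screw. The highest signalling, along the dorsal midline, specifies the amnioserosa, an extraembryonic epithelium needed for germ band retraction and dorsal closure, and lower signalling specifies dorsal ectoderm. *zen* encodes a homeodomain protein at the head of the amnioserosa program, and *C15* encodes another homeodomain protein that is active in the amnioserosa. *Doc1*, *Doc2* and *Doc3* are neighbouring genes for T-box factors, *pnr* encodes a GATA factor, *ush* a zinc finger protein that binds Pnr, and *tup* a LIM homeodomain protein. *Ance* encodes a secreted peptidase related to angiotensin-converting enzyme that is used as a marker of the amnioserosa. A slice across the axis holds dorsal, lateral and ventral cells together, so the values below describe position from anterior to posterior and not dorsal width. In such slices, fewer expressing cells and less RNA per cell cannot be told apart.

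In the *D. melanogaster* annotation that the expression files use (release 5), *zen* lies on chromosome 3R from 2578586 to 2579916 on the minus strand. *Ance* lies on 2L from 13905645 to 13909212 (plus), *tup* on 2L from 18859507 to 18881261 (minus) and *ush* on 2L from 476220 to 540560 (plus). *pnr* lies on 3R from 11851801 to 11867518 (plus) and *C15* on 3R from 17325708 to 17338536 (plus). The *Doc* genes sit side by side on 3L, with *Doc3* from 8998296 to 9000349 (plus), *Doc2* from 9005786 to 9012346 (minus) and *Doc1* from 9034475 to 9038142 (plus).

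Levels were read as FPKM (fragments per kilobase of transcript, scaled to the mapped fragments of the library), and position as the middle of a slice in percent of the slices, with the anterior end at 0. The authors' joint table held values for 169 slices, and the other 17 were filled by interpolation between neighbours. None of the 1674 values of the 9 genes carried a failed status. The anterior end was taken from the labels. The pole cell transcript *pgc* was highest in the last slice of all 7 embryos. The anterior transcript *bcd* was highest in the first 3 slices of 6 embryos, but in melXsim replicate 2 it was highest in slice 21 (17.98 FPKM against 2.38 FPKM in the first slice), where *osk* and *gcl* of the pole cell list were also highest (22.9 and 36.6 FPKM). In melXsim replicate 1 the highest *bcd* value was only 1.09 FPKM, against 1.02 FPKM in the last slice. *bcd* therefore does not mark the anterior end in melXsim replicates 1 and 2. Per embryo, 5 mesoderm markers summed to between 283 and 426 FPKM, 5 ventral neuroectoderm markers to between 59.1 (melXsim replicate 3) and 157 FPKM (simXsim), and 5 pole cell and germ plasm markers to between 31.9 (melXmel) and 99.5 FPKM (simXsim). The 9 dorsal genes summed to between 185 and 262 FPKM.

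*zen* was expressed from the head to the posterior part of every embryo and was highest between 64.8 and 72.2% of the axis. Its highest slice reached 187 FPKM in melXmel, 121, 49.8 and 224 FPKM in melXsim replicates 1, 2 and 3, 126.02 and 108 FPKM in simXmel replicates 1 and 2, and 56.5 FPKM in simXsim. The mean along the axis was 85.5 FPKM in melXmel, 46.5, 25.3 and 91.5 FPKM in the melXsim embryos, 59.6 and 38.3 FPKM in the simXmel embryos, and 26.1 FPKM in simXsim. Thus the melXmel embryo and melXsim replicate 3 were high, simXsim and melXsim replicate 2 were low, and the directions of the cross overlapped. In melXmel 38.8% of the *zen* FPKM lay in region 4 and 17.2% in region 2, when the axis was divided into 5 regions of 20% numbered from the anterior end, while in simXsim the shares were 31.8 and 25.6%.

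*Ance* had an anterior and a more posterior domain, and which of them was higher differed between embryos. The highest slice lay at 16.7% in melXmel (36.7 FPKM), at 20.4, 67.3 and 20.4% in the melXsim embryos (30.4, 40.2 and 57.7 FPKM), at 62.0 and 16.7% in the simXmel embryos (44.3 and 45.4 FPKM), and at 57.4% in simXsim (59.7 FPKM). The mean along the axis was 14.9 FPKM in melXmel, 12.5, 17.8 and 18.4 FPKM in melXsim, 19.7 and 25.3 FPKM in simXmel, and 29.5 FPKM in simXsim. In these means both simXmel embryos lay above the melXsim embryos, and simXsim above all hybrids. The share of all genes with such an order was not counted. In the test of level by direction below, 0 of 8 dorsal genes were called, where 16.6% of all genes were. In region 2 the melXmel embryo had 24.3 FPKM and the simXsim embryo 20.6 FPKM, whereas in region 4 they had 12.6 and 35.8 FPKM. Region 2 held 36.1% of the *Ance* FPKM in melXmel and 15.5% in simXsim, with 32.2, 15.98, 34.9, 14.3 and 26.9% in the hybrids.

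The genes for the GATA factor Pnr and its partner Ush were expressed in the trunk, at levels that differed between the parental embryos by more than those of the other tested genes on the log2(FPKM + 1) scale used below. *pnr* peaked at 4.79 FPKM in melXmel (95% interval of the authors' estimate 3.67 to 5.92) and at 45.7 FPKM in simXsim (41.0 to 50.4). The hybrids peaked in between, at 8.08, 10.5 and 5.35 FPKM in melXsim and at 8.40 and 25.2 FPKM in simXmel. All of these highest *pnr* slices lay between 44.2 and 62.0% of the axis, and between 28.4 and 81.6% of the *pnr* FPKM fell in region 3. Per embryo, *pnr* averaged 0.647 FPKM in melXmel, 1.36, 2.31 and 0.598 FPKM in melXsim, 1.80 and 3.80 FPKM in simXmel, and 11.8 FPKM in simXsim. *ush* averaged 1.88 FPKM in melXmel, 3.50, 5.07 and 1.41 FPKM in melXsim, 3.72 and 4.24 FPKM in simXmel, and 9.06 FPKM in simXsim. Both genes were lowest in melXsim replicate 3 and melXmel and highest in simXsim, and the directions of the cross overlapped for both. The ventral neuroectoderm marker *ind* was likewise lowest in melXsim replicate 3 (0.608 FPKM) and melXmel (10.1 FPKM) and highest in simXsim (53.4 FPKM). Of the same marker list, the gene *sim* also had these extremes, while *vnd*, *SoxN* and *rho* did not. The part of age within stage 5 in these levels was not tested. Between 2.42 and 5.05% of the *ush* FPKM lay in region 1.

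*C15* was low in every embryo and, except in melXsim replicate 3, lay mainly in the trunk and the posterior part. Its highest slice reached 0.525 FPKM in melXmel and 6.18 FPKM in simXsim (95% interval 4.06 to 8.29), with 0.614, 2.59 and 0.139 FPKM in melXsim and 1.42 and 1.72 FPKM in simXmel. In melXmel the 95% interval of that slice was 0 to 1.13. In melXsim replicates 1 and 3 it was 0 to 1.84 and 0 to 0.416, so these maxima are not above the floor. The slice of melXsim replicate 3 lay at 16.7% of the axis. No slice of melXmel or of melXsim replicates 1 and 3 reached 1 FPKM, against 11 of 27 slices in simXsim. *C15* averaged 0.0508 FPKM in melXmel, 0.101, 0.467 and 0.00514 FPKM in melXsim, 0.309 and 0.328 FPKM in simXmel, and 1.23 FPKM in simXsim. Its mean over the embryos was under the minimum of 1 FPKM, and it entered no test.

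*tup* was highest in the head. The highest slice lay at 9.26% in melXmel (34.3 FPKM), at 9.26, 9.62 and 9.26% in melXsim (23.4, 22.4 and 29.9 FPKM), at 14.0 and 9.26% in simXmel (36.8 and 45.03 FPKM), and at 5.56% in simXsim (32.0 FPKM). From 35.9 to 53.5% of the *tup* FPKM fell in region 1. It was also expressed behind the head. Between 45 and 95% of the axis its highest slice reached 7.92 FPKM in melXmel, 4.97 to 19.8 FPKM in the hybrids and 19.1 FPKM in simXsim. The mean along the axis was 8.55 FPKM in melXmel, 9.07, 6.93 and 6.64 FPKM in melXsim, 10.6 and 12.1 FPKM in simXmel, and 13.3 FPKM in simXsim. Both simXmel embryos were above the melXsim embryos, an order whose share among all genes was not counted.

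The 3 *Doc* genes shared a stripe in the head and a posterior domain. For *Doc1* the anterior stripe peaked at 201 FPKM in melXmel, 129, 190 and 286 FPKM in melXsim, 109 and 151 FPKM in simXmel and 170 FPKM in simXsim. Its position was 24.1% in melXmel, 24.1, 21.2 and 20.4% in melXsim, 30 and 24.1% in simXmel, and 12.96% in simXsim, the most anterior of the 7. The *Doc2* stripe lay at 24.1% in melXmel, between 21.2 and 24.1% in the 5 hybrids, and at 16.7% in simXsim. The *Doc2* stripe maxima were lower than those of *Doc1* in each embryo, at 65.3 FPKM in melXmel, 58.6, 54.2 and 80.4 FPKM in melXsim, 53.0 and 59.7 FPKM in simXmel and 81.6 FPKM in simXsim. Between 35 and 65% of the axis the lowest slice of *Doc2* was at 1.86 to 12.7 FPKM, and that of *Doc1* at 19.4 to 38.6 FPKM. *Doc3* was also high in the first slice, at 104 FPKM in melXmel, 45.001, 65.3 and 74.5 FPKM in melXsim, 77.2 and 128 FPKM in simXmel and 80.1 FPKM in simXsim. The *Doc3* stripe peaked between 89.0 and 176 FPKM, at 16.7% in simXsim and between 21.2 and 24.1% in the others except simXmel replicate 2, where the highest anterior slice lay at 5.56%. In the last slice *Doc3* ranged from 36.2 FPKM in melXsim replicate 3 to 373 FPKM in simXmel replicate 1.

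Averaged along the axis, *Doc1* was at 54.8 FPKM in melXmel, 53.8, 68.4 and 66.7 FPKM in melXsim, 61.3 and 74.3 FPKM in simXmel, and 71.3 FPKM in simXsim, so the groups overlapped. *Doc3* was at 34.4 FPKM in melXmel, 40.7, 42.6 and 39.8 FPKM in melXsim, 59.6 and 54.2 FPKM in simXmel, and 68.9 FPKM in simXsim. The simXmel embryos lay above the melXsim embryos for *Doc3* as well as for *Doc2*, which was at 12.1 FPKM in melXmel, 19.3, 15.7 and 14.2 FPKM in melXsim, 20.2 and 20.1 FPKM in simXmel, and 30.6 FPKM in simXsim. How many of all genes have the simXmel embryos above the melXsim embryos was not counted. The *Doc* genes are related in sequence, and how reads that match more than 1 of them were counted was not examined.

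The anterior place of the *Doc1* and *Doc2* stripes in simXsim was also seen in the head genes *slp1* and *ems*, which were chosen with their own positions known and so are a description and no independent check. *slp1* peaked at 27.8% in melXmel and at 16.7% in simXsim, and *ems* at 27.8 and 20.4%, while the hybrids ranged from 21.2 to 27.8% for *slp1* and from 24.1 to 31.5% for *ems*. The place of the head stripes was not tested.

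**Figure D1:**
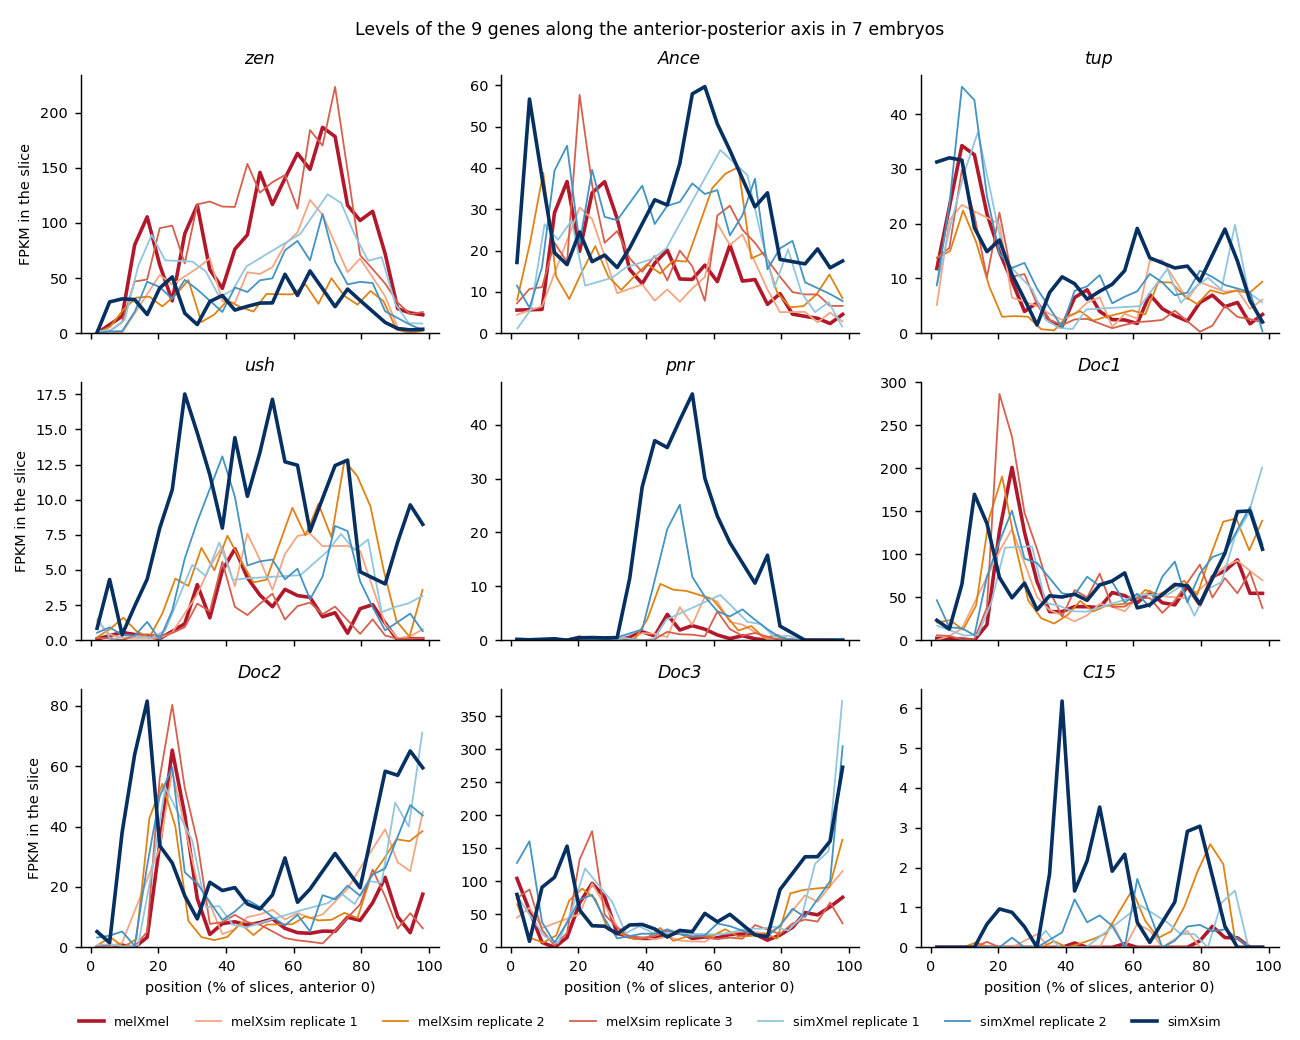
FPKM (vertical axis, 1 panel per gene, scales differ) against position along the axis (percent of slices, anterior at 0) for the 7 embryos. There is 1 line per embryo over all its slices, with those outside the authors' joint values filled by interpolation. *zen*, *Ance*, *ush* and *pnr* span the trunk, *tup* is highest in the head and the anterior *Doc* stripes lie there. *pnr* and *C15* reach 45.7 and 6.18 FPKM in simXsim against 4.79 and 0.525 FPKM in melXmel.

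Levels were compared over embryos as log2(mean FPKM along the axis + 1), with limma fitted to the 6721 genes that averaged at least 1 FPKM. The first question was whether the mother's species changes the level of the dorsal genes in hybrids. Of the 8 genes tested, 0 passed an adjusted p of 0.05, where 16.6% of all genes did, and 0 had an unadjusted p under 0.05, where 30.2% of all genes did. The 8 differences (simXmel minus melXsim) were all above 0, with a median of 0.38 against 0.12 for all genes. The largest were 0.66 for *pnr* (SE 0.37, adjusted p = 0.271) and 0.54 for *tup* (SE 0.28, adjusted p = 0.229). *Doc3* and *Ance* differed by 0.46 each (SE 0.26 and 0.30), *ush* by 0.30 (SE 0.38), *Doc2* by 0.29 (SE 0.28), *Doc1* by 0.11 (SE 0.28) and *zen* by 0.00 (SE 0.47). Without melXsim replicate 3 the *ush* difference was -0.07, and that of *zen* was -0.44 without melXsim replicate 2.

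Between the parental embryos *pnr* was higher in simXsim, by 2.95 on the log2 scale (SE 0.58, adjusted p = 0.011). It was the 1 call among 8 genes, where 10.9% of all genes were called. With 1 embryo per strain, the spread came from the hybrids and each parental embryo was assumed to vary like them. *ush* was 1.80 above melXmel in simXsim (SE 0.59, adjusted p = 0.080), *Doc2* 1.28 (SE 0.43, adjusted p = 0.084), *Doc3* 0.98 (SE 0.41, adjusted p = 0.155) and *Ance* 0.94 (SE 0.46, adjusted p = 0.223). *tup* and *Doc1* differed by 0.58 (SE 0.43) and 0.37 (SE 0.43). *zen* had the opposite sign, at -1.67 (SE 0.73, adjusted p = 0.173). Of the 8 genes, 5 had an unadjusted p under 0.05, where 26.8% of all genes did, and the median difference was 0.96 against 0.10 for all genes. The *pnr* call was lost when genes of low level were kept (adjusted p = 0.142), and *ush* passed without melXsim replicate 3 (adjusted p = 0.0237). The summed ventral neuroectoderm markers were also higher in simXsim (157 FPKM) than in melXmel (74.2 FPKM), mostly through *ind* (53.4 and 10.1 FPKM) and *SoxN* (61.6 and 22.8 FPKM), while *vnd* was lower (11.4 and 16.2 FPKM). The summed pole cell markers were higher in simXsim (99.5 and 31.9 FPKM) and the summed mesoderm markers lower (283 and 378 FPKM). The part of these markers in the differences above was not tested.

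**Figure D2:**
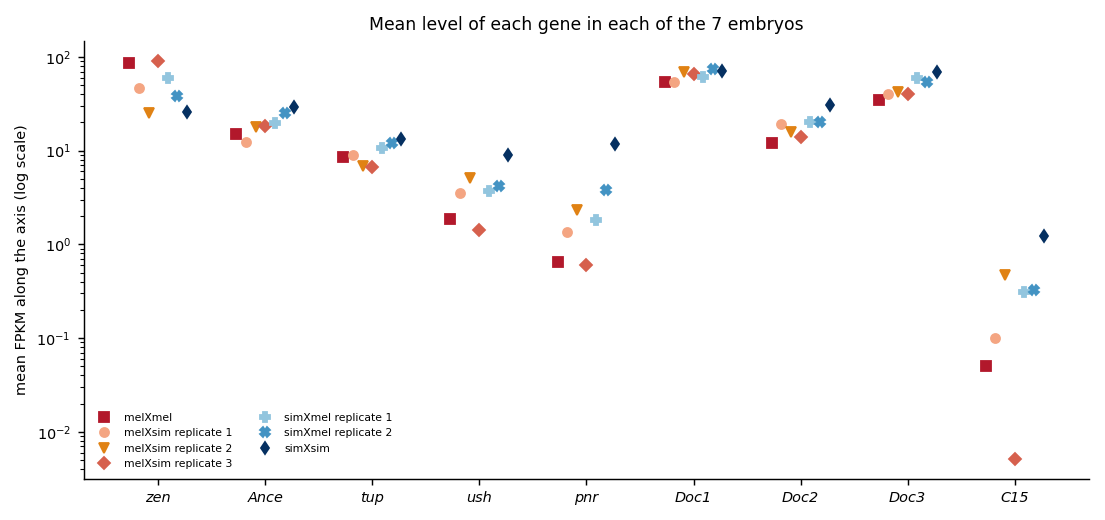
Mean FPKM along the axis (vertical axis, log scale) of each gene in each of the 7 embryos, 1 point per embryo. *pnr* runs from 0.598 FPKM in melXsim replicate 3 to 11.8 FPKM in simXsim, and *zen* from 25.3 FPKM in melXsim replicate 2 to 91.5 FPKM in melXsim replicate 3.

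The place of expression was summarised by the centre of mass of FPKM along the axis, after 1 FPKM was added to every slice. Genes with at least 10 FPKM in a slice of every hybrid were tested, which were 4519 genes and 6 of the 9 dorsal genes. The centre of *Ance* was at 40.6% in melXmel, 45.1, 48.3 and 45.2% in melXsim, 50.5 and 46.5% in simXmel, and 49.1% in simXsim. That of *zen* was at 54.9% in melXmel, 54.5, 50.05 and 53.5% in melXsim, 53.8 and 54.3% in simXmel, and 47.3% in simXsim. The hybrids therefore lay between the parents for *zen*, and for *Ance* all but simXmel replicate 1 did. Between parents, 0 of 6 genes were called, where 0.686% of all genes were. Unadjusted p was under 0.05 for 2 of them, where 12% of all genes had such a p. These were *Ance* at 8.45 percentage points (SE 2.41, adjusted p = 0.260) and *zen* at -7.59 points (SE 2.203, adjusted p = 0.264), in opposite directions. *Doc3* differed by 11.8 points (SE 7.33), *tup* by 9.82 (SE 6.51), *Doc2* by 7.22 (SE 6.31) and *Doc1* by 0.67 (SE 4.42). By direction of the cross 0 of 6 genes were called either, where 0.354% of all genes were, and 0 had an unadjusted p under 0.05. Those differences were 6.15 points for *Doc3* (SE 4.73), 5.69 for *Doc2* (SE 4.08), 5.68 for *Doc1* (SE 2.85), 2.30 for *Ance* (SE 1.56), 1.38 for *zen* (SE 1.42) and 0.22 for *tup* (SE 4.21).

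ASE is (sim - mel)/(sim + mel) over the reads assigned to a species, so that 1 is only *D. simulans* and -1 only *D. melanogaster*. The ASE table held 126 of the 132 hybrid slices. Averaged over the slices of an embryo, the ASE of the 7 dorsal genes with enough values lay between -0.16 and 0.16. *zen* averaged -0.01, -0.06 and -0.08 in melXsim and 0.06 and -0.02 in simXmel. *Ance* averaged 0.08, 0.05 and 0.16 in melXsim and 0.16 and 0.02 in simXmel, above 0 in all 5 hybrids. In the summed allele counts described below, however, simXmel replicate 2 lay slightly on the other side for *Ance* (48.5% *D. simulans*). *tup* averaged 0.04, -0.16 and 0.01 in melXsim and -0.03 and -0.07 in simXmel, and *ush* 0.05, -0.06 and -0.04, then -0.03 and 0.07. The *Doc* genes lay between -0.10 and 0.11 in every hybrid. In the parental embryos the few values present lay between -0.996 and -0.980 in melXmel and between 0.952 and 0.998 in simXsim, which checks the assignment of reads. The table lists no value where all reads came from 1 species, so those parental slices are mostly without one.

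Overall allele bias was called where both directions of the cross passed with the same sign in limma on the log2 ratio of sim to mel. Of the 7 dorsal genes with ASE in at least 3 slices of every hybrid, 0 were called, where 5.1% of 4629 genes were. No gene of the 7 had an unadjusted p under 0.05 in either direction, where 85.1% of all genes did in melXsim and 73.2% in simXmel. After adjustment 84.3% of all genes passed in melXsim and 71.3% in simXmel. The largest ratios were those of *Ance*, 0.28 in melXsim (SE 0.19) and 0.26 in simXmel (SE 0.23). *tup* had -0.12 (SE 0.20) and -0.14 (SE 0.24). In edgeR and DESeq2 on the allele counts, 0 of the 3 genes with usable counts (*Ance*, *tup* and *ush*) were called, with a lowest adjusted p of 0.145. For the ratio of the maternal to the paternal allele, 83.3% of all genes were called, with a median log2 ratio of 1.93 over all genes, and 0 of the 7 dorsal genes were. They lay between -0.02 for *Doc3* (SE 0.14) and 0.10 for *zen* (SE 0.14), and 0 had an unadjusted p under 0.05. Transcripts that the mother deposits in the egg come from her genome alone.

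*pnr* had ASE in only 4, 8 and 2 slices of the melXsim embryos and 7 and 10 of the simXmel embryos, so it was not in that test. Its ASE averaged 0.16, 0.33 and 0.19 in melXsim and 0.33 and 0.17 in simXmel, towards *D. simulans* in all 5 hybrids. With the minimum lowered to 2 slices, which was chosen after these values were seen, the log2 ratio of sim to mel was 0.67 in melXsim (SE 0.21, adjusted p = 0.0192) and 0.75 in simXmel (SE 0.25, adjusted p = 0.0326), and *pnr* was called, where 5.2% of 4792 genes were. Slices whose *pnr* reads all came from 1 species are not in these means, and the number of reads behind the ASE values is unknown.

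Change of ASE along the axis was examined by fitting a step and a peak to ASE over all hybrid slices and taking the share of the variance that the better curve explained. Of 4341 genes, 60 reached 45%, which is 1.38%, and *Ance* was the only one of the 7 fitted dorsal genes among them. Its ASE followed a peak centred at 32% of the axis that explained 56.9% of the variance over 125 slices, which ranked it 27 of 4341 genes. The fitted ASE was -0.46 at the centre of the peak and 0.27 away from it, so the fitted curve ran from *D. simulans* in the head to *D. melanogaster* in region 2 and back to *D. simulans* in the trunk. *zen* followed a peak of the opposite sign, with 0.29 at 28% of the axis against -0.10 elsewhere. That curve explained 27.4% of the variance over 109 slices (rank 136), under the threshold but above the 95th percentile of all genes, which was 17.7%. The other fits explained 9.24% for *Doc2*, 7.98% for *tup*, 5.21% for *Doc3*, 4.20% for *Doc1* and 2.39% for *ush*, where the median gene had 1.28%. Slices are not independent, so these fits carry no p. The study uses the same 45% threshold and shows *Ance* as its example of a peak fit, from the same libraries. The *Ance* fit is therefore no independent finding.

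**Figure D3:**
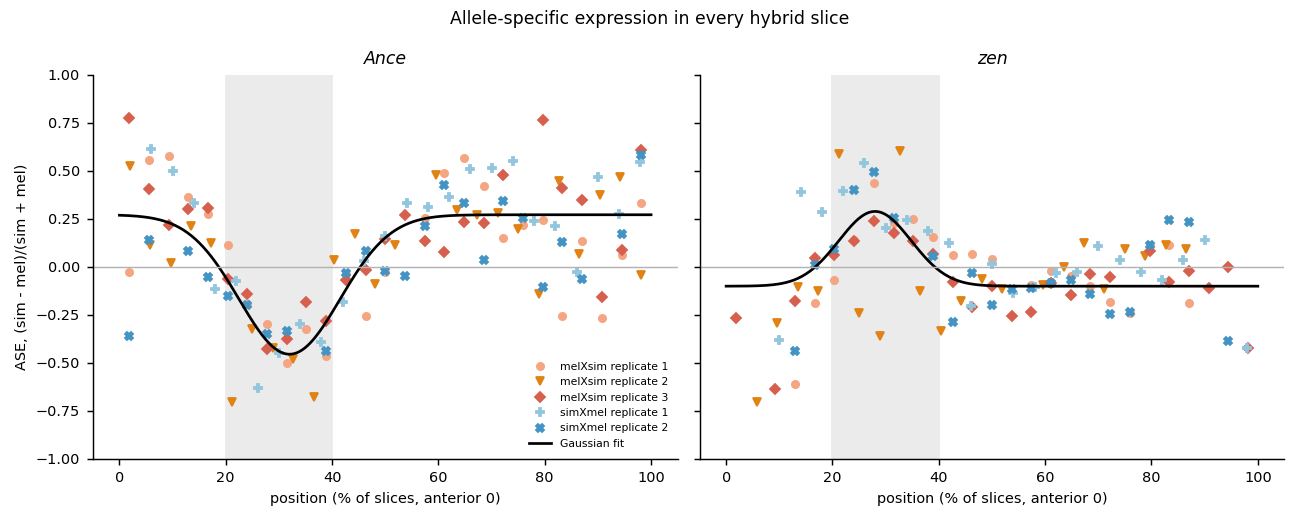
ASE (vertical axis, 1 for *D. simulans* only and -1 for *D. melanogaster* only) against position (percent of slices) for *Ance* and *zen*, 1 point per hybrid slice, 1 marker per embryo, with the fitted Gaussian as a line and region 2 shaded. *Ance* dips to a fitted -0.46 at 32% and *zen* peaks at a fitted 0.29 at 28%.

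The same question was asked over embryos, by comparing the mean ASE in each region of the axis with the mean ASE in the other regions of the same embryo. *zen* passed in region 2, with 0.28, 0.20 and 0.28 in melXsim and 0.33 and 0.37 in simXmel. The mean of both directions was 0.30 (SE 0.02, adjusted p = 0.0391), above 0 in 5 of 5 hybrids. It was the 1 call among 30 gene and region pairs of the dorsal genes, where 0.619% of 19876 pairs were called, and 8 of the 30 had an unadjusted p under 0.05, where 13.8% of all pairs did. The ASE of *zen* in that region was 0.19, 0.09 and 0.13 in melXsim and 0.31 and 0.26 in simXmel. *zen* lay at -0.20 in region 1 (SE 0.05, adjusted p = 0.227) and at -0.12 in region 3 (SE 0.03, adjusted p = 0.215). The *zen* call rested on all 5 hybrids, since leaving out any 1 of them kept the difference between 0.29 and 0.32 but gave adjusted p from 0.124 to 0.197, and no pair of any gene was called then. Weighting slices by FPKM also ended it (0.26, adjusted p = 0.130), and so did a replicate block (0.31, adjusted p = 0.349), in which replicate 1 of each direction was the pair of the first library batch. That block spends most of the degrees of freedom of the 5 hybrids.

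*Ance* had the larger regional difference but missed the threshold. In region 2 its ASE was below the rest of the embryo by 0.47, 0.72 and 0.52 in melXsim and by 0.67 and 0.41 in simXmel. The mean was -0.55 (SE 0.06, adjusted p = 0.0574), below 0 in 5 of 5 hybrids. It passed when only slices with at least 5 FPKM were used (-0.56, adjusted p = 0.0445). The ASE of *Ance* in region 2 was -0.28, -0.52 and -0.25 in melXsim and -0.37 and -0.30 in simXmel. In region 4 ASE was above the rest by 0.35, 0.16 and 0.25 in melXsim and by 0.35 and 0.25 in simXmel, with a mean of 0.28 (SE 0.03, adjusted p = 0.0697). Regions 1 and 5 had 0.17 (SE 0.05, adjusted p = 0.297) and 0.15 (SE 0.06, adjusted p = 0.389). The difference between the directions of the cross was tested too and called neither gene, with 0.10 for *zen* in region 2 (SE 0.04, adjusted p = 0.298), 0.03 for *Ance* there (SE 0.12, adjusted p = 0.906) and 0.05 for *Ance* in region 4 (SE 0.07, adjusted p = 0.738). Of all 19876 pairs 0, or 0%, were called by direction in limma, while 3524 had an unadjusted p under 0.05.

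**Figure D4:**
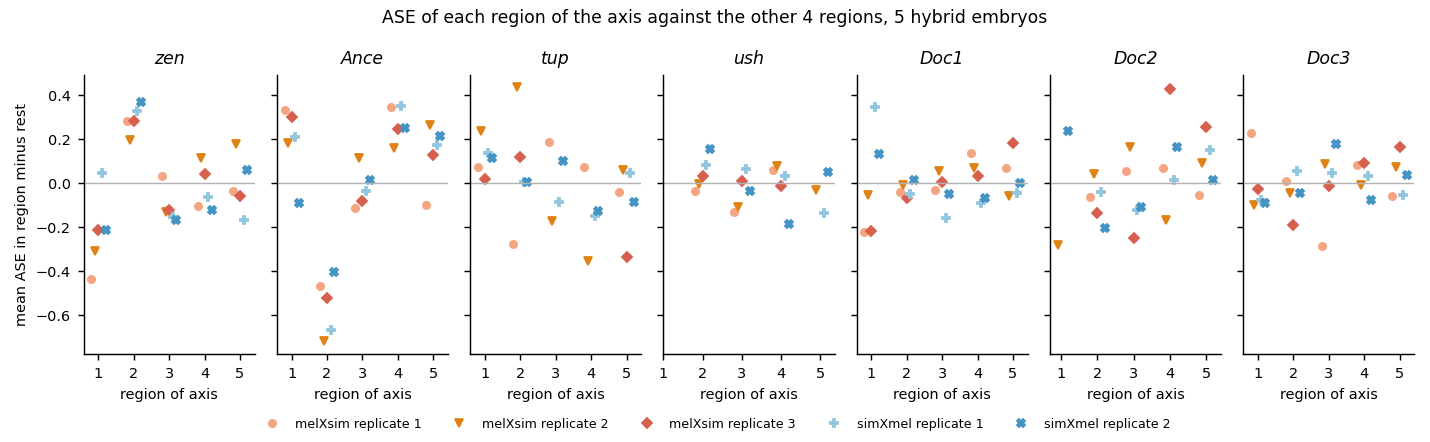
Mean ASE in a region of the axis minus the mean ASE in the other regions (vertical axis), by region from anterior (1) to posterior (5), 1 point per hybrid embryo, for the 7 dorsal genes tested. In region 2 all 5 hybrids lie between 0.20 and 0.37 for *zen* and between -0.72 and -0.41 for *Ance*.

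Counts of SNP alleles could be used for *Ance*, *tup* and *ush*, since only these 3 genes have matching coordinates in the allele count and expression files. In region 2, *D. simulans* alleles were 41.5% of the *Ance* counts in melXsim replicate 1 (95% Wilson interval 38.0 to 45.1, 730 counts). They were 22.8% in replicate 2 (19.9 to 25.96, 741 counts) and 38.2% in replicate 3 (35.8 to 40.7, 1552 counts). In simXmel the shares were 31.2% (27.2 to 35.5, 484 counts) and 35.1% (33.1 to 37.2, 2128 counts). All 5 were thus below 50%. In region 4 they were 67.7% (64.6 to 70.7), 62.5% (59.8 to 65.2) and 65.2% (62.4 to 67.8) in melXsim and 73.6% (71.0 to 76.1) and 61.8% (59.3 to 64.3) in simXmel, over 907 to 1466 counts, and no interval of region 2 met one of region 4. Regions 2 and 4 had the lowest and highest mean ASE of *Ance* in these hybrids, and the counts come from the same libraries. The comparison of counts therefore describes the same difference and is no independent check of it. A read that covers several SNPs is counted at each of them, so the intervals cover counting error only and are too narrow. Background was low, with 4 sim counts of 4484 in melXmel and 6 mel counts of 7370 in simXsim.

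The difference was seen at each SNP compared. All 55 *Ance* SNPs with at least 20 counts in both regions, from 13906598 to 13909100 on 2L, had a lower *D. simulans* share in region 2 than in region 4 when the 5 hybrids were summed. The shares ran from 17.02 to 51.3% in region 2 (median 34.5%) and from 57.5 to 77.9% in region 4 (median 65.2%). Neighbouring SNPs share reads, so they are not independent. The SNPs were compared between the regions of lowest and highest ASE in the same libraries, so they too are a description and no independent check. Over the whole embryo the *D. simulans* share of *Ance* was 48.5% in simXmel replicate 2 (47.3 to 49.8) and between 55.4 and 60.1% in the other 4 hybrids. It was 43.5 to 50.2% for *tup* (1212 to 1986 counts) and 48.6 to 53.6% for *ush* (745 to 2704 counts).

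**Figure D5:**
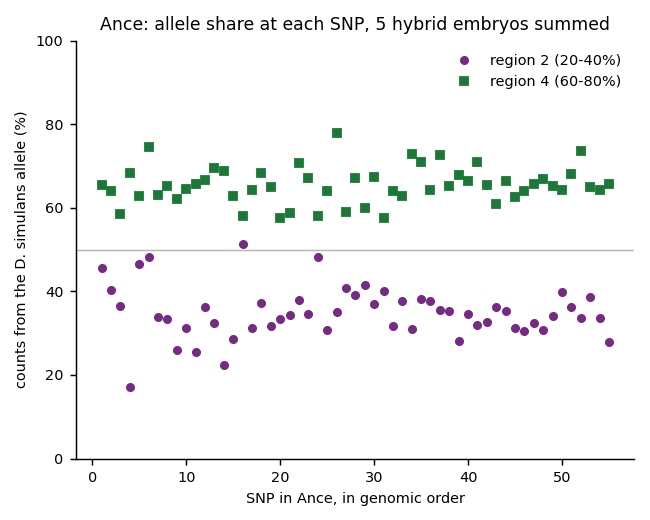
Share of counts from the *D. simulans* allele (vertical axis, percent) at each of 55 SNPs of *Ance* in genomic order (horizontal axis), summed over the 5 hybrids, in region 2 (circles) and region 4 (squares) of the axis. The circles lie between 17.02 and 51.3% and the squares between 57.5 and 77.9%.

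Set beside the levels, region 2 is where the melXmel embryo had the larger share of its *Ance* (36.1% against 15.5% in simXsim) and the hybrids used more *D. melanogaster* allele. For *zen* it is where simXsim had the larger share (25.6% against 17.2% in melXmel) and the hybrids used more *D. simulans* allele, although its level there was higher in melXmel (66.0 FPKM) than in simXsim (30.1 FPKM). In region 1 the shares and the alleles ran opposite ways for both genes in 4 of 5 hybrids. simXsim had the larger share of *zen* there (15.2% against 9.04%), with ASE of -0.40, -0.31 and -0.26 in melXsim and 0.10 and -0.22 in simXmel. melXmel had the larger share of *Ance* (20.6% against 18.5%), with ASE of 0.35, 0.20 and 0.40 in melXsim and 0.33 and -0.05 in simXmel. By level, however, region 1 had more *zen* in melXmel (41.7 FPKM) than in simXsim (21.4 FPKM), and less *Ance* (16.6 and 29.5 FPKM). The parental levels there thus ran the same way as the alleles in 4 of 5 hybrids for each gene. The *zen* ASE of region 1 rests on 2, 4 and 4 slices in melXsim and 3 and 2 in simXmel. In regions 3, 4 and 5 *zen* was at 114, 149 and 47.9 FPKM in melXmel and 30.7, 37.4 and 7.97 FPKM in simXsim. Its mean ASE over the hybrids there was only -0.11, -0.04 and -0.02. *Ance* was at 15.9, 12.6 and 3.82 FPKM in melXmel and 44.4, 35.8 and 17.6 FPKM in simXsim there. Its mean ASE was 0.08, 0.31 and 0.20. These shares and levels come from 1 embryo per strain and were not tested.

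Among themselves the genes did not share a single profile along the axis. Over slices, the mean Pearson r of log2(FPKM + 1) in the 5 hybrids was highest for *Doc1* and *Doc2* (0.93, from 0.87 to 0.97). It was 0.61 for *zen* with *Ance* and with *ush*, and 0.55 for *ush* and *pnr*. *Doc3* was on average less like its neighbours and varied between hybrids, with 0.47 to *Doc1* (from 0.16 to 0.80) and 0.50 to *Doc2* (from 0.30 to 0.76), and had negative values with *zen* (-0.48), *Ance* (-0.48), *ush* (-0.43) and *pnr* (-0.46). The lowest value was that of *tup* and *ush* (-0.51). Slices of an embryo are neighbours on 1 axis, so these values describe likeness and carry no p.

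Among 4519 genes, the profile most like that of *zen* was *sisA* (mean r 0.85 over 5 hybrids), a bZIP gene of the X chromosome count, followed by *CG43659* (0.84). For *pnr* they were the homeotic gene *Antp* (0.86) and *tsg* (0.80), which encodes a secreted regulator of BMP ligands. *ush* was most like *CG4702* (0.81) and *beat-IIIc* (0.80), *tup* like *CG7900* (0.73) and *CG42342* (0.71), and *Ance* like *CG34266* (0.66) and *yellow-e3* (0.65). After each other, *Doc1* and *Doc2* were most like *esg*, a zinc finger gene (0.70 and 0.69). *Doc3* was most like *egr*, which encodes a TNF ligand (0.72), and *disco* (0.63). *C15* resembled no gene well, with 0.40 for *GstE7* and 0.39 for *gk*.

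A list of 20 genes of the dorsal BMP pathway was measured in the same tests. By level, 0 of 19 tested genes were called by direction of the cross and 0 of 19 between the parents, with 3 genes each at an unadjusted p under 0.05, where 30.2 and 26.8% of all genes had such a p. By place, *scw*, which encodes the ligand Screw, had its centre 22.5 points more posterior in simXsim than in melXmel (SE 3.20, adjusted p = 0.0353), and it was the 1 call of 16, where 0.686% of all genes were called. Its centre was at 54.4% in melXmel and 76.9% in simXsim. In the hybrids *scw* was biased to *D. melanogaster* (log2 ratio -1.18 in melXsim with SE 0.18, and -0.82 in simXmel with SE 0.22), and the Tolloid-related protease gene *tok* to *D. simulans* (0.92 with SE 0.17, and 0.81 with SE 0.21), which were 2 of 14 genes called in both directions, where 5.1% of all genes were. The receptor genes *put* and *sax* and the signal transducer genes *Mad* and *Med* used the maternal allele more, with log2 ratios of maternal to paternal of 4.05, 1.33, 4.04 and 2.57. They were 4 of 14 genes, where 83.3% of all genes were called.

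Regional ASE was called for 3 of the 14 pathway genes tested, where 2.12% of 4345 genes had a call. *srw*, a gene for a secreted regulator of BMP ligands, differed by -0.52 in region 1 (SE 0.04) and by 0.50 in region 3 (SE 0.04), both with adjusted p = 0.0409. *tld*, for the protease that cleaves Sog, differed by 0.23 in region 2 (SE 0.02, adjusted p = 0.0409), and *scw* by 0.37 in region 5 (SE 0.02, adjusted p = 0.0391). As with *zen*, no pair was called when a hybrid was left out. The fits along the axis explained 70.3% for *srw*, 48.3% for *scw* and 46.3% for *tld*, the 3 of 14 that reached 45%, where 1.38% of all fitted genes did. By direction of the cross, 0 genes of the list were called in any region in limma, and 5 of the values had an unadjusted p under 0.05.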

How the data were processed

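The authors sequenced each slice with SMART-seq2 and called bases with CASAVA 1.8.2. They mapped reads with STAR 2.4.2a to *D. melanogaster* release 5, in which SNPs between the species were masked. Reads that did not map to the same place after exchange of their alleles were removed, and the others were assigned to species by SNPs. Gene models came from *D. melanogaster* only, which by the study may undercount genes biased to *D. simulans*. The part of this in the FPKM of the parental embryos was not tested. The deposited FPKM values come from Cufflinks 2.2.1 and are normalized for length and mapped fragments. The deposited allele counts are raw numbers of SNP alleles, kept where both annotations place the gene at the same coordinates, with each SNP counted once. The deposited ASE score lies between -1 and 1. The authors excluded slices of few reads or poor mapping. The number of reads per slice was not taken from the files used, so depth is given only as allele counts. Of the joint tables, 27 columns without a matching sample or values were not used.

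The 9 genes, the list of 20 pathway genes and the tests were chosen with earlier results of these data known. Besides these, the text names for each gene the 2 genes of most similar profile among those with at least 10 FPKM in a slice of every hybrid, and pathway genes that passed a test. *slp1* and *ems* were chosen after their values were seen.

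Each embryo gave 1 value per gene. limma 3.58.1 in R 4.3.3 was fitted across all genes, with the 4 groups for levels (pseudocount of 1 FPKM, minimum mean of 1 FPKM) and positions, and with the 5 hybrids for ASE, and p-values are adjusted by Benjamini-Hochberg over all genes. Step and peak fits were made in Python 3.11.15 for autosomal genes whose ASE was listed in 50% or more of the hybrid slices. Regional tests needed 2 slices with ASE in a region (20% of the axis) in every hybrid. The scripts were tested on simulated data. Replicate 1 of each direction was in the first library batch and the others in later ones, which left no batch large enough for its own test. The labels do not say whether the embryos of a group came from separate matings. Alternatives were another pseudocount, no filter on low values, other treatments of missing slices, 3 regions in place of 5, weighting by FPKM, edgeR 4.0.16 and DESeq2 1.42.0 on the allele counts, a replicate block, leaving out each hybrid and, added after seeing the data, a minimum of 2 slices with ASE.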

Additional observations from a re-analysis of the deposited data

Results flagged for a closer look

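For *Doc1* the regional ASE lay on opposite sides of 0 in the 2 directions of the cross in 2 of the 5 regions of the axis. In region 1, at the anterior end, ASE minus that of the rest was between -0.22 and -0.05 in the 3 melXsim embryos and between 0.13 and 0.34 in the 2 simXmel embryos. The difference between directions was 0.40 (SE 0.09, unadjusted p = 0.00921, limma adjusted p = 0.173). In region 4 the values were between 0.03 and 0.13 in melXsim and between -0.09 and -0.07 in simXmel, a difference of -0.16 (SE 0.04, unadjusted p = 0.0111, limma adjusted p = 0.179). Both were tested and neither passed the adjustment over all genes and regions. The 30 gene and region pairs of the dorsal genes were searched for such a split, and the share of all pairs that split so was not counted. Of the 30 pairs, 3 had an unadjusted p under 0.05 by direction in limma, where 17.7% of all pairs did.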

How the results depend on the processing

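Numbers of genes called moved with several choices. Keeping genes of low level lowered them from 1115 to 581 by direction of the cross and from 734 to 169 between parents. For place, the 16 calls by direction became 8 without the added FPKM, and the 31 between parents became 53 with every slice taken from its own file. Overall allele bias went from 236 genes to 82 in edgeR and 89 in DESeq2, and maternal bias from 3858 to 1182 and 1194. These fits differ both in the test and in the genes, of which 1506 had usable counts, and the cause was not tested. A threshold of 60% left 21 of 60 fits, without *Ance*. Regional ASE went from 123 pairs to 198 with 3 regions in place of 5, and that by direction from 0 to 1 with 3 regions, 9 with at least 5 FPKM and 9 when weighted by FPKM.

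Equal replicate numbers did not pair the embryos (correlation of deviations 0.09 and 0.03). With a replicate block the calls of place by direction went from 16 to 2 and those of regional ASE from 123 to 0, so that *zen* in region 2 was not called (0.31, adjusted p = 0.349). Only melXsim has a replicate 3, so the block fits that embryo exactly and it adds nothing to the spread. The parental embryos are in no block, so differences between them keep their size. For ASE the block spends most of the degrees of freedom of the hybrids, so lost calls cannot be told from lost power. In that block *zen* (adjusted p = 0.0344) and *ush* (adjusted p = 0.0275) passed between the parents, *ush* differed by -0.0724 by direction, *tup* by -4.41 points, and *Doc3* by 0.00716 in maternal bias.

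Leaving out 1 hybrid gave 572 to 1123 and 593 to 926 calls of level (direction, parents), 0 to 5 and 20 to 43 of place, 108 to 275 of overall and 3385 to 3902 of maternal bias, 54 to 68 fits, and 0 to 0 regional calls in both tests. Signs turned in 8 of 50 single-gene results, none of them called. Leaving out 1 hybrid moved the level by direction from -0.44 to 0.46 for *zen*, -0.0724 to 0.594 for *ush* and -0.0306 to 0.243 for *Doc1*, place from -4.41 to 3.33 for *tup*, maternal bias from -0.0681 to 0.019 for *Doc3*, and the regional difference by direction from -0.10 to 0.16 for *Ance* in region 2. *zen* was at -0.00517 with every slice from its own file and -0.017 without interpolation. With the highest 3-slice mean, *Doc1* was at -0.0913 and *Doc2* at -0.0281 by direction, and *Doc1* at -0.16 between parents. *Doc3* passed without the filter, by direction (adjusted p = 0.0474) and between parents (adjusted p = 0.0479). In 42 of the 50 results no alternative changed the side of the threshold.

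*C15* has no ASE row and *pnr* has ASE in as few as 2 slices of a hybrid. The reads behind ASE are unknown, so the part of depth in this was not tested.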
